A study of Sus scrofa with 24 samples.

Results

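ITGB2, SPI1 and AIF1 are genes of macrophages and other leukocytes, and their levels were followed across 24 arrays of porcine aortic valve leaflet. All probe sets annotated to exactly 1 symbol among these 3 were taken, which gave 1 probe set per gene, 3 of the 23999 tested, and 3 of the 6765 symbols read by such probe sets. The Entrez gene IDs in the platform annotation were 396943 for ITGB2, 414912 for SPI1 and 397271 for AIF1. None of the genes therefore had a second probe set against which its values could be checked.

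A heart valve leaflet is built mainly by interstitial fibroblasts under an endothelial cover, and macrophages with some other bone marrow-derived cells live between them. SPI1 encodes PU.1, the transcription factor that directs the formation of macrophages and other myeloid cells and binds at many of their genes. ITGB2 encodes CD18, the shared beta chain of the leukocyte integrins, with which these cells hold on to vessel walls, take up complement-coated particles and spread. AIF1 encodes Iba1, a calcium-binding protein that bundles actin in macrophages and microglia during ruffling and phagocytosis and is widely used to stain them.

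The tissue came from domestic pigs of 12 to 24 months. A piece of 15 by 10 mm from the centre of each cusp was kept for 24 h at 37 C in serum-containing DMEM. The static pieces were left unloaded, whereas the others hung from sutured loops in a bioreactor that pulled them cyclically. Either condition was run with no agents or with 5HT (serotonin) plus Fluox, which made 4 groups of 6 arrays. The labels at hand state no dose of either agent. All pieces, the static ones included, had thus been excised and cultured, and no array of fresh tissue was analysed here. The leaflets of a valve were randomised over the groups, and pieces of 1 animal may thus stand in several groups, so p-values measure the spread between these samples.

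Values are GCRMA probe set summaries on a log2 scale, and the number of arrays, 6 a group, limits their precision. The median probe set read between 4.71 and 4.83 on every array. The 25th percentile, near the bottom of the scale, lay between 2.52 and 2.60 on static and between 2.58 and 2.83 on stretched arrays. Hybridization control probe sets read higher with stretch. Without agents their median was 11.61 (range 10.46 to 11.76) on static and 12.30 (10.89 to 13.30) on stretched arrays. With agents it was 11.55 (11.19 to 11.96) and 12.74 (12.45 to 13.35). The part of this shift in the member changes was not tested. RNA quality moved with stretch. The difference between 3′ and 5′ probe sets of GAPDH and EF1A, which widens when RNA is degraded or copied incompletely, without agents was 0.77 ± 0.14 log2 (SD, n = 6) for static pieces against 2.09 ± 0.71 for stretched pieces, a difference larger than the spread (exact two-sided permutation test, p = 0.00216, adjusted p = 0.00432 over 4 comparisons). With 5HT plus Fluox it was 0.82 ± 0.11 and 2.64 ± 1.07 (exact two-sided permutation test, p = 0.00216, adjusted p = 0.00432). The 3 stretched arrays that stood apart with a difference above 2.5 were replicate 6 without agents (3.06) and replicates 5 (4.66) and 6 (2.98) with agents. Member changes and list counts are given below also without them and from a fit with this difference as a covariate.

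ITGB2, SPI1 and AIF1 were all lower in stretched than in static tissue, whether the agents were absent or present, and none of them passed the test for an effect of 5HT plus Fluox. The AIF1 call with agents was lost with the RNA quality covariate (adjusted p = 0.345). For each gene the means of both static groups lay above the means of both stretched groups. Markers of the other valve cells were called as well. In stretched tissue without agents 8 of 12 measured fibroblast genes were higher and 2 lower. Of 15 endothelial genes 10 were lower and 2 higher, and of 7 smooth muscle and pericyte genes 4 were higher and 0 lower. Among all probe sets 23.1% were called lower and 29.4% higher without agents, and 23.9% and 28.3% with agents. With agents the counts were 9 higher and 2 lower, 7 lower and 2 higher, and 3 higher and 0 lower in the same order. In the covariate fit they were 4 higher and 2 lower, 8 lower and 2 higher, and 3 higher and 0 lower without agents, and 6 higher and 1 lower, 5 lower and 1 higher, and 4 higher and 0 lower with agents. Without the 3 arrays of widest difference they were 7 higher and 2 lower, 9 lower and 2 higher, and 4 higher and 0 lower without agents, and 9 higher and 1 lower, 7 lower and 2 higher, and 4 higher and 0 lower with agents. HBB, the beta globin of red blood cells, changed by -1.0 (limma adjusted p = 0.00409) without and -0.87 (adjusted p = 0.0088) with agents, and by -0.36 (adjusted p = 0.3) and 0.01 (adjusted p = 0.994) with the covariate. The part of these cells in the member changes was not tested. The fibroblast genes VIM and DCN, which mark the labelled tissue, read 12.21 and 12.26 in static tissue without agents. In bulk tissue, fewer cells of a type and less RNA per cell cannot be told apart.

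SPI1, the transcription factor, read 5.38, 6.04 and 6.92 (lowest, median and highest of 6 arrays) in static tissue without agents and 2.45, 3.49 and 4.76 in stretched tissue without agents. With 5HT plus Fluox it read 5.43, 5.81 and 6.04 in static and 2.51, 3.09 and 3.71 in stretched tissue. Every stretched array lay below every static array under both conditions, and the highest stretched value, 4.76, was under the lowest static value, 5.38. The stretched arrays without agents were also the most scattered for this gene, with a mean of 3.64 ± 0.89 (SD, n = 6), against 5.80 ± 0.23 in static tissue with agents. The log2 change was -2.51 without agents (SE 0.33, 95% interval -3.20 to -1.82, limma adjusted p = 7.28e-06), which is 5.70-fold lower. With agents the change was -2.65 (SE 0.33, 95% interval -3.34 to -1.96, limma adjusted p = 3.04e-06), or 6.28-fold lower. SPI1 thus stood around percentile 60.6 of a static array without agents and around percentile 38.5 of a stretched one (medians over 6 arrays).

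ITGB2, the integrin beta chain, read 5.08, 5.78 and 6.68 (lowest, median and highest) in static tissue and 2.5, 2.61 and 2.92 in stretched tissue without agents. With 5HT plus Fluox the values were 4.51, 5.45 and 5.90 in static and 2.35, 2.58 and 4.51 in stretched tissue. Without agents the groups lay far apart, and the stretched arrays stood between percentiles 18.2 and 29.8 of all probe sets, at the bottom of the scale. A further fall may not have been readable there, although the floor of this probe set was not measured. The 8.90-fold lower level (log2 change -3.15, SE 0.34, 95% interval -3.86 to -2.44, limma adjusted p = 6.51e-07) may thus understate the difference. With agents 5 of 6 stretched arrays lay below all static ones, and the exception, replicate 6, read 4.51 where the other 5 read 2.35 to 2.81. This array met the lowest static array of that condition, also at 4.51, and it was 1 of the 3 arrays of widest RNA quality difference. The change with agents was -2.46 (SE 0.34, 95% interval -3.17 to -1.75, limma adjusted p = 1.05e-05), or 5.49-fold lower, and it may be understated as well, since the other 5 stretched arrays lay at the bottom of the scale.

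AIF1, the actin-bundling protein, read 7.39, 7.72 and 9.43 (lowest, median and highest) in static and 5.12, 5.85 and 7.03 in stretched pieces without agents. With 5HT plus Fluox it read 7.12, 7.63 and 8.29 in static and 5.81, 5.94 and 7.65 in stretched tissue. The groups did not overlap without agents. With agents 5 of 6 stretched arrays lay below all static arrays, and replicate 6, at 7.65, lay inside the static range. The log2 change was -2.21 without agents (SE 0.41, 95% interval -3.06 to -1.37, limma adjusted p = 0.00025), or 4.64-fold lower. It was -1.34 with agents (SE 0.41, 95% interval -2.18 to -0.49, limma adjusted p = 0.0102), or 2.52-fold lower, and with the RNA quality covariate it was -0.95 (adjusted p = 0.345). Even in stretched tissue without agents AIF1 stood between percentiles 53.4 and 70.9 of the array, well off the bottom of the scale.

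**Figure D1:**
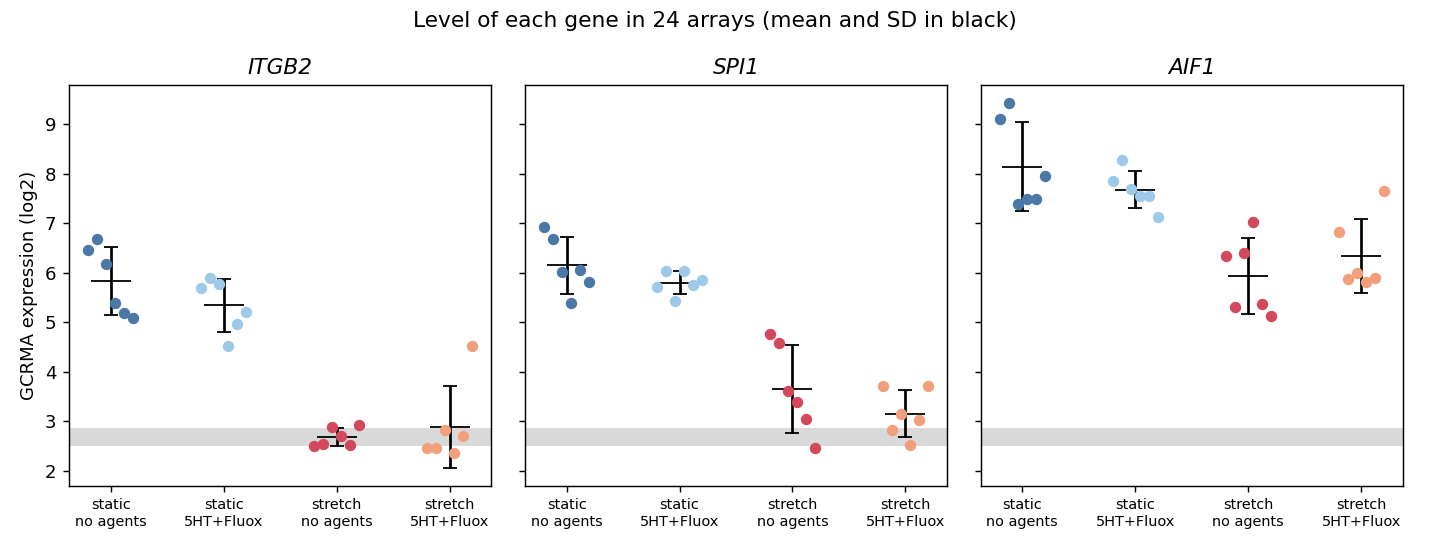
Log2 value of ITGB2, SPI1 and AIF1 on each of the 24 arrays (points), by group, with the group mean and SD; the grey band is the range over arrays of the 25th percentile of all probe sets, 2.52 to 2.83. Stretched ITGB2 values sit in or near the band except replicate 6 with agents at 4.51, while AIF1 stays above it in all groups. Some stretched SPI1 values reach the band, down to 2.45 without and 2.51 with agents.

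The calls have to be read against a wide background, since much of the array changed with stretch. Without agents all 3 genes were called lower, where 23.1% of the 23999 probe sets were called lower, 29.4% were called higher, and the share called lower was 36.1% where the brighter group's mean was 5 or more. With agents all 3 were again called lower, where the shares were 23.9% lower, 28.3% higher and 39.1% lower among the brighter probe sets. All 6 stretched arrays lay below all 6 static arrays for the 3 genes without agents, as for 8.36% of all probe sets. With agents SPI1 alone of the 3 had such separated groups, as had 18.1% of all probe sets.

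The sizes of the falls were also set against those of other bright probe sets. Among probe sets with a static mean of at least 5, whose median log2 change was -0.46 without and -0.51 with agents, 1.25% fell at least as much as ITGB2 without agents, 3.31% at least as much as SPI1 and 5.35% at least as much as AIF1. With agents the shares were 5.68%, 4.35% and 23.4% in the same order, so the AIF1 change with agents was of a size shared by many genes. These shares describe the 3 genes and carry no test, since the genes were picked with earlier results known.

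**Figure D2:**
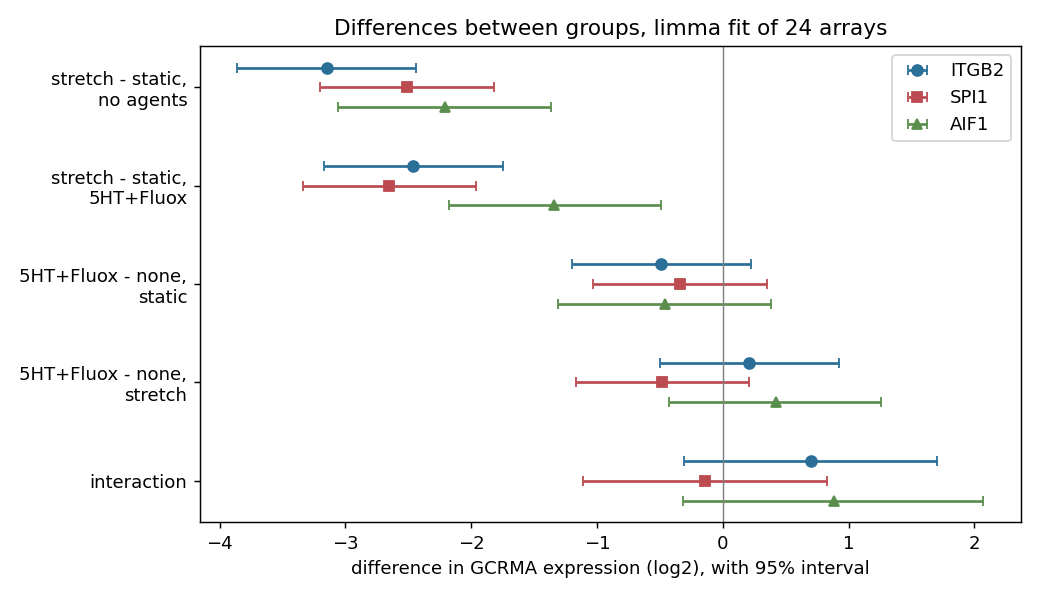
Log2 differences of ITGB2, SPI1 and AIF1 (points) with 95% intervals for stretch minus static without and with agents, for agents minus none in static and in stretched tissue, and for the interaction. All stretch intervals lie below 0, and every interval for the agents and for the interaction crosses it.

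5HT plus Fluox gave no call for any of the 3 genes. In static tissue the log2 change with agents was -0.49 for ITGB2 (95% interval -1.20 to 0.22), -0.34 for SPI1 (-1.03 to 0.35) and -0.46 for AIF1 (-1.31 to 0.38), with a limma adjusted p of 1 for each. In stretched tissue it was 0.21 for ITGB2 (95% interval -0.50 to 0.92, limma adjusted p = 0.867), -0.48 for SPI1 (-1.17 to 0.21, adjusted p = 0.563) and 0.42 for AIF1 (-0.43 to 1.26, adjusted p = 0.724). These intervals reach from -1.31 to 1.26 on the log2 scale, so that a moderate effect of the agents was not detectable with 6 arrays a group. For ITGB2 in stretched tissue, where nearly all arrays lay at the bottom of the scale, a lowering by the agents may not have been readable. Few genes were called at all: 1 of the probe sets (0.00417%) in static and 14 (0.0583%) in stretched tissue.

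The stretch effect was not shown to depend on the agents. The interaction, the stretch change with agents minus that without, was 0.70 for ITGB2 (SE 0.48, 95% interval -0.31 to 1.70, limma adjusted p = 0.812), -0.14 for SPI1 (SE 0.47, -1.11 to 0.83, adjusted p = 0.978) and 0.88 for AIF1 (SE 0.58, -0.32 to 2.07, adjusted p = 0.791). The limma fit called 0 probe sets (0%) for the interaction, with 1791 at an unadjusted p under 0.05 and 0 calls with trend and robust variances. The smaller fall of ITGB2 and AIF1 with agents is therefore a difference of values only.

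Ordered by mean level, ITGB2 read 5.83 ± 0.69 (SD, n = 6) in static tissue without agents, 5.34 ± 0.54 in static tissue with agents, 2.88 ± 0.82 in stretched tissue with agents and 2.68 ± 0.19 in stretched tissue without. SPI1 means ran from 6.15 ± 0.57 and 5.80 ± 0.23 in the static groups to 3.64 ± 0.89 and 3.15 ± 0.48 in the stretched groups, each without agents first. AIF1 means were 8.14 ± 0.90 and 7.68 ± 0.38 in the static groups and 5.93 ± 0.77 and 6.34 ± 0.74 in the stretched groups. For each gene the neighbours within the static pair and within the stretched pair did not pass the test, whereas each stretched group differed from the static group of the same agents.

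The falls were also measured beside RNA quality, whose part in them was not tested beyond the following values. Stretched replicate 1 without agents had a 3′ to 5′ difference of 0.98, next to the static range of 0.57 to 0.97 over both static groups. On it ITGB2 read 2.5, SPI1 4.76 and AIF1 6.34, each below every static array of either condition. Without the 3 arrays of widest difference the log2 changes without agents were -3.20 for ITGB2, -2.27 for SPI1 and -2.05 for AIF1, and with agents they were -2.82, -2.76 and -1.55, all called by limma. With the difference as a covariate the change of ITGB2 was -3.38 without and -2.76 with agents, and that of SPI1 -2.16 and -2.17, all called. The AIF1 change was -1.94 without agents (limma adjusted p = 0.011), and the change of -0.95 with agents had an SE of 0.61. Within groups the 3′ to 5′ difference correlated with ITGB2 at r = 0.18 (two-sided permutation test, p = 0.434), with SPI1 at -0.29 (permutation p = 0.244) and with AIF1 at -0.19 (permutation p = 0.436) over 24 arrays. The adjusted p over these 3 relations was 0.436 for each, and Spearman's rho was 0.26, -0.06 and -0.13 (permutation p = 0.177, 0.821 and 0.571). Without the 2 arrays farthest in the 3′ to 5′ difference r was 0.34, -0.18 and -0.07. The static arrays spanned a narrow range of this measure. Within the 6 stretched arrays without agents r was 0.67 for ITGB2, -0.73 for SPI1 and -0.65 for AIF1, and within the 6 with agents it was 0.22, -0.02 and -0.04, as a description with no test.

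**Figure D3:**
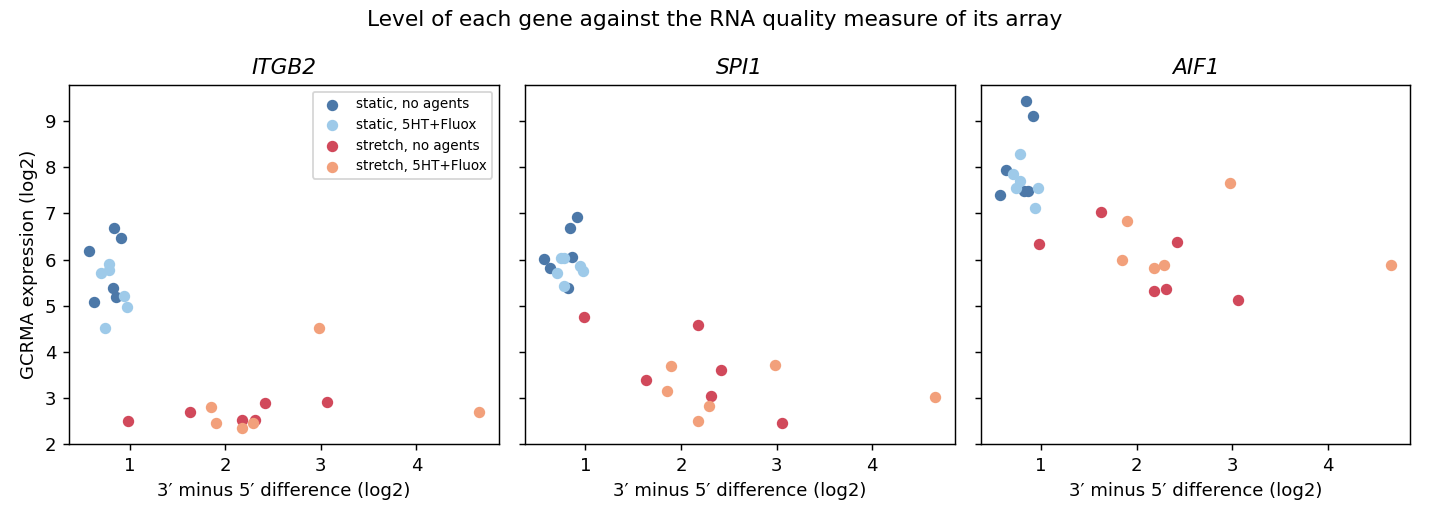
Log2 value of ITGB2, SPI1 and AIF1 (vertical axes) against the GAPDH and EF1A 3′ to 5′ difference (horizontal axis, log2) on 24 arrays, coloured by group. Static arrays all lie under 1 on the horizontal axis, and stretched replicate 1 without agents, at 0.98, has low ITGB2, SPI1 and AIF1 values.

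Once the group means were set aside, the 3 genes varied together only in part. Over 24 arrays, as deviations from the group mean, ITGB2 and AIF1 correlated at r = 0.62 (two-sided permutation test within groups, p = 0.00465, adjusted p = 0.0139 over 3 pairs), while Spearman's rho was 0.45 (permutation p = 0.0338, adjusted p = 0.0507). Without the 2 arrays farthest from the median in ITGB2 alone r was 0.38 (permutation test, adjusted p = 0.131), so that the relation rested on static replicate 2 and stretched replicate 6 with agents. SPI1 and AIF1 had r = 0.54 (permutation p = 0.0202, adjusted p = 0.0303) and rho = 0.54 (permutation p = 0.0184, adjusted p = 0.0507). Without the 2 arrays farthest in SPI1, stretched replicates 1 and 6 without agents, r was 0.50 (permutation test, adjusted p = 0.131). The call was thus lost while r stayed of like size, but the arrays farthest in AIF1 were kept. ITGB2 and SPI1 had r = 0.27 (permutation p = 0.149, adjusted p = 0.149) and rho = 0.26 (permutation p = 0.209, adjusted p = 0.209), with r = 0.09 without the 2 farthest in ITGB2. In static tissue without agents r was 0.79, 0.73 and 0.85 for ITGB2 with SPI1, ITGB2 with AIF1 and SPI1 with AIF1 over 6 arrays, and in stretched tissue with agents it was 0.61, 0.82 and 0.87. Without replicate 6 of that last group, over 5 arrays, it was 0.28, -0.14 and 0.90, so that the values of ITGB2 there rested on 1 array. In stretched tissue without agents, where ITGB2 was at the bottom of the scale, the same pairs had r = -0.64, 0.02 and 0.26, and in static tissue with agents they had -0.41, 0.61 and 0.14. Differences of r between groups were not tested.

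Genes that varied most like each member within groups were ranked over 6145 probe sets and 24 arrays, as a description with no test. For SPI1 they were BCAP31, MRPL28, STUB1, IMP4 and RALY, with r of 0.92, 0.89, 0.88, 0.87 and 0.87, and with r of 0.54, 0.93, 0.89, 0.56 and 0.42 where group means were left in. For AIF1 they were C7H6orf125, NDUFB11, NDUFS7, COMMD4 and GGH, with r of 0.88, 0.87, 0.86, 0.84 and 0.83, and of 0.90, 0.46, 0.58, 0.67 and 0.92 with group means left in. For ITGB2 they were FBXO9, GCDH, VSIG4 on a pair of probe sets and RNF135, with r of 0.83, 0.82, 0.82, 0.81 and 0.80, and of 0.56, 0.47, -0.40, -0.31 and 0.29 with group means left in. Of these genes VSIG4 alone is in a leukocyte list.

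VSIG4, a complement receptor of tissue macrophages, thus varied with ITGB2 within groups, while its level was higher where that of ITGB2 was lower. Within the 4 groups of 6 arrays r was 0.93 in static and 0.76 in stretched pieces without agents, and 0.88 and 0.78 with agents. VSIG4 was picked for this likeness, and in both stretched groups the ITGB2 values lay at the bottom of the scale apart from replicate 6 with agents. Without that array r in its group was 0.35 over 5 arrays. The mean of VSIG4 was 7.27 in static and 8.99 in stretched pieces without agents, a log2 change of 1.72 (SE 0.54, limma adjusted p = 0.0128), and with agents it went from 6.87 to 8.45, a change of 1.58 (adjusted p = 0.019). With the RNA quality covariate the changes were 1.27 (adjusted p = 0.189) and 0.96 (adjusted p = 0.497), so that both calls were lost. The other probe set named above changed by 1.46 (adjusted p = 0.0318) and 1.26 (adjusted p = 0.0591) without and with agents.

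**Figure D4:**
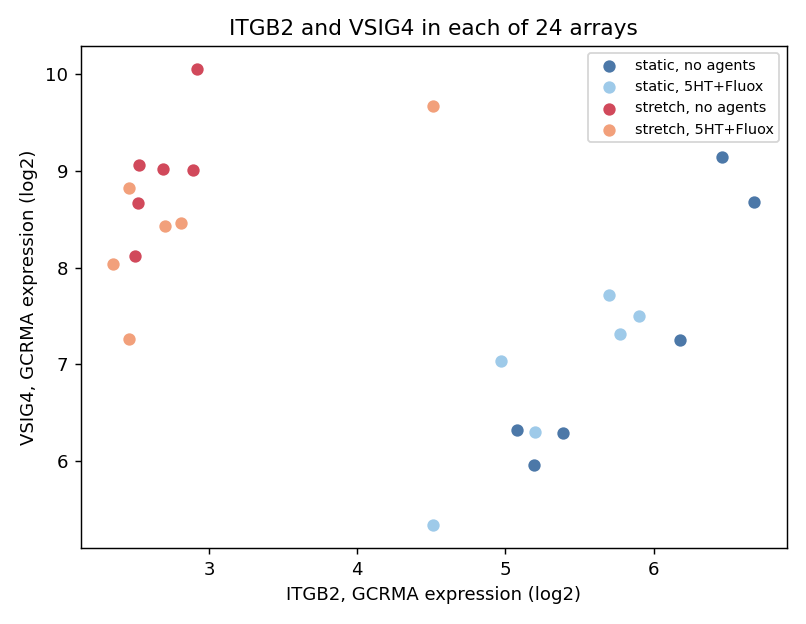
Log2 value of VSIG4 (vertical axis) against ITGB2 (horizontal axis) on 24 arrays, coloured by group. The static points rise together, at r of 0.93 and 0.88, while the stretched groups sit lower for ITGB2, within a narrow range apart from replicate 6 with agents at 4.51, and have higher mean VSIG4.

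Other leukocyte genes were read from 9 lists with 149 symbols, of which 86 were measured. Without agents 19 of the 86 (22.1%) were called lower and 12 higher, with a median log2 change of -0.20 beside 0.08 for all probe sets. Of the 45 whose brighter group had a mean of 5 or more, 17 (37.8%) were lower and 4 higher. With agents 16 of 86 (18.6%) were lower and 11 higher, and among the 45 brighter ones 15 (33.3%) were lower and 5 higher. The shares called lower lie near the background shares of 23.1% and 36.1% without agents and 23.9% and 39.1% with agents. The other leukocyte genes were thus called lower about as often as any probe set. Called higher were 12 and 11 of the 86, a smaller share than the 29.4% and 28.3% of all probe sets. The same background shares stand beside the counts of single lists below. No test was run on these shares. In the covariate fit 14 of the 86 were lower and 5 higher without agents, and 8 lower and 3 higher with agents. Without the 3 arrays of widest difference 18 were lower and 10 higher, and 12 lower and 9 higher.

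**Figure D5:**
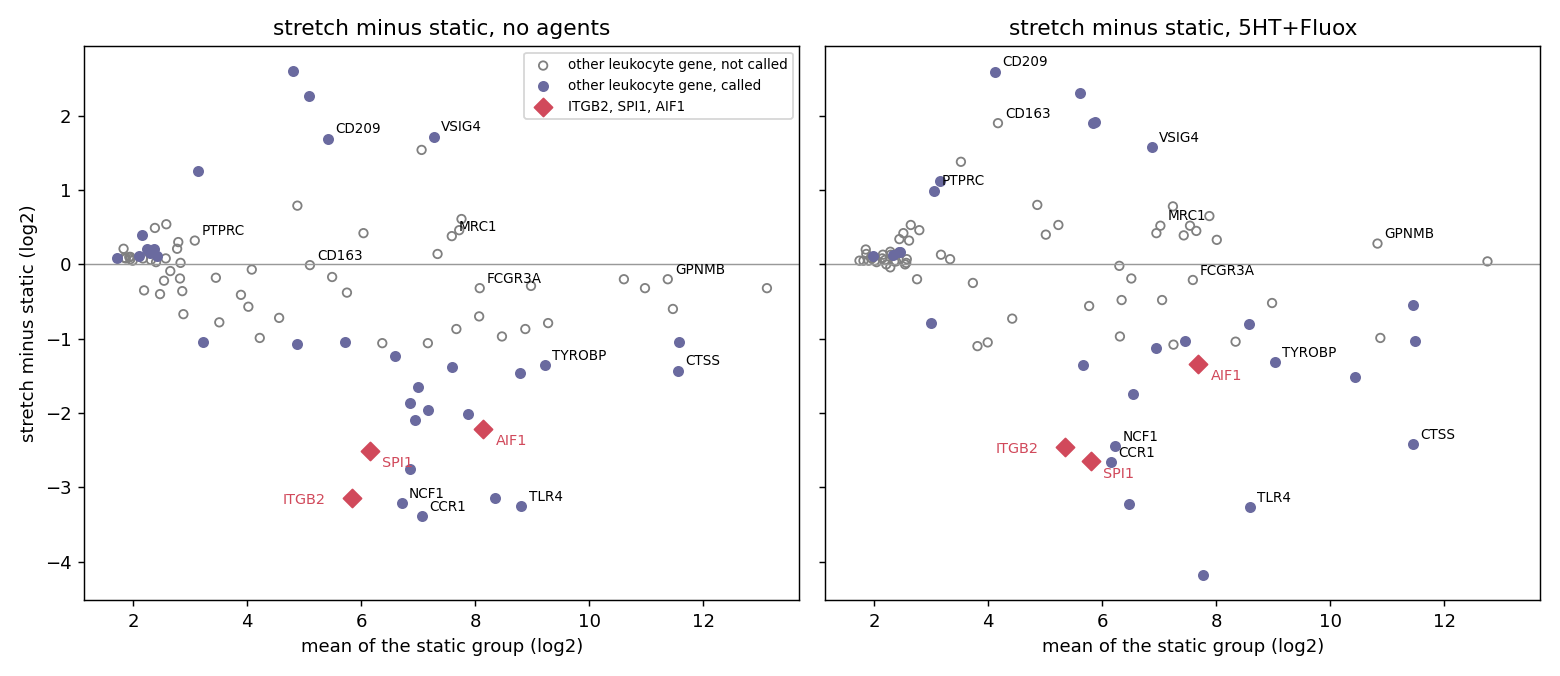
Log2 change with stretch (vertical axes) against the static mean (horizontal axes, log2) of ITGB2, SPI1, AIF1 (diamonds) and 86 other leukocyte genes (circles, filled where called), without agents on the left and with 5HT plus Fluox on the right. Without agents the 3 members lie among the lower points of their level, as do CCR1, NCF1 and TLR4. With agents ITGB2 and SPI1 do so too, while AIF1, at -1.34, lies above CCR1, NCF1 and TLR4, at -2.66, -2.45 and -3.27. PTPRC, MRC1 and GPNMB lie near or above 0.

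Among genes that PU.1 is known to bind or to work with, 4 of 14 measured were lower and 1 higher without agents, with a median log2 change of -0.26, and 3 were lower and 2 higher with agents, with a median of 0.07. NCF1, a subunit of the phagocyte oxidase, went from 6.71 to 3.49 in stretched tissue without agents (change -3.21, limma adjusted p = 1.83e-05) and changed by -2.45 with agents (adjusted p = 0.000252), although its other probe set, at the bottom of the scale, changed by -0.46 (adjusted p = 0.128) without agents. TLR4, the receptor for bacterial lipopolysaccharide, changed by -3.25 (adjusted p = 3.28e-05) and -3.27 (adjusted p = 2.41e-05). CYBA, another oxidase subunit, changed by -1.65 (adjusted p = 0.000162) without and -0.48 (adjusted p = 0.164) with agents. CD14, which presents lipopolysaccharide to TLR4, was not called in either condition, at -0.38 (adjusted p = 0.484) and 0.80 (adjusted p = 0.148). Under the RNA quality covariate 4 were lower and 3 higher without agents, and 2 lower and 2 higher with agents. The myeloid and B cell factor IRF8, at 1.54 (adjusted p = 0.104) and 0.42 (adjusted p = 0.659) without the covariate, was called higher there (3.88, adjusted p = 0.000121, and 3.66, adjusted p = 0.00129). So was GATA2 (1.93, adjusted p = 0.00101, and 2.49, adjusted p = 0.000597), a factor of blood progenitors and mast cells. Without the covariate GATA2 changed by 0.46 (limma adjusted p = 0.433) and 0.45 (adjusted p = 0.443). Its other, dimmer probe set was called higher without the covariate, at 1.49 (adjusted p = 0.00932) and 1.45 (adjusted p = 0.01). Without the 3 arrays of widest difference 4 were lower and 3 higher without agents, and 2 lower and 3 higher with agents.

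Of the integrin's partners, ligands and adaptors 3 of 7 measured were lower and 1 higher in either condition, with medians of -0.97 and -0.80. The covariate fit gave 3 lower and 1 higher without agents (median -0.90), but 1 lower and 0 higher with agents, where the median turned to 0.12. Without the 3 arrays of widest difference the counts were 4 lower and 1 higher (median -1.14) without agents, and 2 lower and 1 higher with agents, with a median of 0.08. The higher one, ITGAM, which pairs with ITGB2 in the complement receptor Mac-1, lay near the bottom of the scale, at 2.37 in static and 2.58 in stretched pieces without agents (change 0.21, limma adjusted p = 0.00203). ICAM2, a ligand of leukocyte integrins that endothelial cells carry, changed by -2.75 without (adjusted p = 2.65e-05) and -3.23 with agents (adjusted p = 3.33e-06). The integrin-linked adaptors SKAP2 and TLN1 changed by -1.96 (adjusted p = 5.44e-05) and -1.46 (adjusted p = 0.000411) without agents. With agents they changed by -1.12 (limma adjusted p = 0.00533) and -0.80 (adjusted p = 0.023). The RNA quality covariate ended both calls with agents, at -0.80 (adjusted p = 0.278) and -0.03 (adjusted p = 0.978). The other TLN1 probe set changed by -1.15 (adjusted p = 0.00328) without and 0.04 (adjusted p = 0.919) with agents. TLN1, talin, serves integrins in all adherent cells. The part of endothelial cells in the ICAM2 change was not tested. Of the AIF1 relative AIF1L and the actin-bundling genes, 4 measured, none passed the test in either condition. FSCN1, fascin, changed by 0.61 (adjusted p = 0.432) and 0.52 (adjusted p = 0.516), but with the RNA quality covariate it was called higher (2.53, adjusted p = 0.00181, and 3.16, adjusted p = 0.00145), and 1 gene of the list was called higher in either condition without the 3 arrays.

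Macrophage and monocyte markers were called in both directions. Of 11 measured, 1 was lower and 3 higher without agents, with a median of 0.07, and 1 was lower and 2 higher with agents, with a median of 0.17. The chemokine receptor CCR1 was the one that fell, from 7.06 to 3.67 (change -3.39, limma adjusted p = 0.000135) without agents and from 6.16 to 3.50 (-2.66, adjusted p = 0.00103) with agents. The lectin CD209 rose, from 5.41 to 7.10 without agents (1.69, adjusted p = 0.043) and by 2.59 with agents (adjusted p = 0.00405). The other rises called without agents, of MARCO and CCR2, were of 0.21 (adjusted p = 0.0368) and 0.15 (adjusted p = 0.0153) at the bottom of the scale. The scavenger receptor CD163 and the mannose receptor MRC1 were not called without agents, at -0.01 (adjusted p = 0.994) and 0.38 (adjusted p = 0.429), and neither was GPNMB, a lysosomal glycoprotein of lipid-laden macrophages, at -0.20 (adjusted p = 0.641). With agents CD163 went from 4.17 to 6.07 and narrowly missed a call (1.90, limma adjusted p = 0.0528). MRC1 and GPNMB changed by 0.52 (adjusted p = 0.28) and 0.28 (adjusted p = 0.517) with agents. With the RNA quality covariate 1 marker was lower and 0 were higher in either condition, and without the 3 arrays 1 was lower and 1 higher. The summed linear level of the 11 on the log2 scale was 10.67, 11.44 and 13.06 (lowest, median and highest) in static and 11.30, 11.58 and 12.05 in stretched pieces without agents, and 10.35, 11.26 and 11.75 in static and 11.20, 11.45 and 12.02 in stretched tissue with agents. GPNMB alone made up between 76.4% and 79.3% of the sum of the group means, so that the sum mostly describes that gene.

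Of the genes of leukocytes in general and of myeloid signalling, 5 of 15 measured were lower and 0 higher without agents (median -0.67), and 5 lower and 2 higher with agents (median -0.19). With the RNA quality covariate 4 were lower and 0 higher without agents, and 3 lower and 0 higher with agents, and without the 3 arrays the counts were 4 and 0, and 5 and 1. TYROBP, the adaptor of many myeloid receptors, changed by -1.36 (limma adjusted p = 0.00221) and -1.32 (adjusted p = 0.00237), and VAV1, a signalling exchange factor, by -2.09 (adjusted p = 9.14e-05) and -1.74 (adjusted p = 0.000432). LAPTM5, a lysosomal membrane protein of blood cells, changed by -1.38 (adjusted p = 0.00857) and -1.03 (adjusted p = 0.0369). LCP2 changed by -1.86 (limma adjusted p = 0.00738) and -0.97 (adjusted p = 0.125). LYN changed by -1.04 (adjusted p = 0.0218) and -1.35 (adjusted p = 0.00444), but lost both calls with the covariate (adjusted p = 0.393 and 0.483). ARHGDIB went the other way, at 0.42 (adjusted p = 0.438) without and 1.90 (adjusted p = 0.00219) with agents. With the covariate the latter was 0.77 (adjusted p = 0.471). PTPRC, the common leukocyte antigen, was low in both groups without agents, at 3.08 in static and 3.40 in stretched pieces without agents (change 0.32, adjusted p = 0.347). With agents it rose from 3.05 to 4.03, with single arrays up to 4.98 (0.99, adjusted p = 0.00838), and with the RNA quality covariate that change was -0.01. The summed level of the 15 genes on the log2 scale was 11.22, 11.42 and 12.24 (lowest, median and highest) in static and 9.63, 11.39 and 12.05 in stretched pieces without agents. With agents it was 10.98, 11.42 and 11.61 against 9.43, 10.26 and 11.50, so that the groups overlapped in either condition. CD53 was the brightest of the 15, with means of 10.61 in static and 10.41 in stretched pieces without agents. Single stretched arrays without agents read 7.59 to 11.77 for it, so that the sum leans on that gene. The 14 measured T and NK lymphocyte markers had group means under 5 in all groups, although single arrays read higher, as KLRK1, a receptor of these cells, with up to 5.59 in stretched tissue without agents. Of these markers 1 was lower and 5 higher without agents, with a median of 0.16, and 1 was lower and 2 higher with agents. Of all probe sets 29.4% were called higher without and 28.3% with agents. The rises of CD4, PRF1 and CD27 called without agents were of 0.11, 0.09 and 0.11 at the bottom of the scale, and CD8B went from 2.15 to 2.54. KLRK1 rose most, from 3.13 to 4.38 (1.25, limma adjusted p = 0.0164) without agents, and by 1.12 (adjusted p = 0.0276) with agents. With the RNA quality covariate the KLRK1 changes were 0.33 and -0.15. LCK was the one called lower, at -1.04 (limma adjusted p = 0.0139) without and -0.79 (adjusted p = 0.0488) with agents. In the covariate fit 0 of the 14 were called in either condition.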

How the data were processed

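The authors deposited 1 log2 value per probe set and array, summarised by GCRMA in Partek; both names come from the submitters' processing notes, without versions. The authors also deposited a table of a two-way analysis of variance with p-values and signed fold changes; in the authors' deposited table the stretch folds of ITGB2 were -8.90 and -5.49, of SPI1 -5.70 and -6.28 and of AIF1 -4.64 and -2.52, without and with agents. Of 24123 probe sets 124 controls were left out. By the platform annotation, 10069 probe sets had 1 symbol, 198 several and 13732 none.

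With limma 3.58.1 (R 4.3.3), lmFit and eBayes were run on all 24 arrays with 1 mean per group. Tests were two-sided, adjusted by Benjamini-Hochberg over 23999 probe sets and called under 0.05. Correlations used 1e+05 permutations within groups. The fit was tested on simulated data. Gene lists held 201 symbols; for each symbol the probe set of the highest mean was used. Named genes were the members, the 5 probe sets with 1 symbol and a mean of at least 5 in some group that were most like each, and up to 6 genes per list of smallest p whose brighter group had a mean of 5 or more. ITGAM, PTPRC, MARCO, CCR2, KLRK1, LCK, CD4, CD8B, PRF1, CD27, GATA2, FCGR3A, AIF1L, KIT, S100A8, S100A9 and S100A12 were named after their values were seen. The members and lists were chosen with earlier results of these data known. Alternatives were a replicate block, trend and robust variances, no moderation, no dim probe sets, quantile normalization, centring, only the groups compared, array weights, the RNA quality covariate and leaving out each array. Leaving out the 3 arrays of widest RNA quality difference was chosen after seeing the data for the list counts, as was leaving out stretched replicate 6 with agents in correlations.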

Additional observations from a re-analysis of the deposited data

Results flagged for a closer look

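ITGB2 in stretched tissue with 5HT plus Fluox, replicate 6, read 4.51 on the log2 scale, while the nearest of the other 5 arrays read 2.81. The gap was 0.784 of the range of the group, above the critical ratio of 0.625 for 6 arrays. It was the 1 array set apart in this way among 12 groups of a gene and a condition, and chance alone sets apart about 1 group in 20. The same array had the highest AIF1 value of its group, 7.65, a SPI1 value of 3.71 and a 3′ to 5′ difference of 2.98. Without the 3 arrays of widest RNA quality difference, which include it, the ITGB2 change with agents was -2.82.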

How the results depend on the processing

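Of the 10 alternatives to the limma fit, 1 changed a stretch call of a member: with the RNA quality covariate the AIF1 change with agents was -0.95 (adjusted p = 0.345). Otherwise the stretch changes, without and with agents, ranged from -3.38 to -2.76 and -2.82 to -2.24 for ITGB2, from -2.51 to -2.15 and -2.76 to -2.17 for SPI1, and from -2.21 to -1.55 without agents for AIF1. Deviations of same-numbered arrays of different groups correlated at -0.44 to 0.63, with a median of 0.11 and 18 of 36 pairs above 0.1. The median was 0 over 180 pairs of unlike numbers, and 6 of 24 arrays were most like their own number. Pairing was not tested, and the labels do not state which arrays share an animal. With a replicate block the stretch changes were -3.15 and -2.46 for ITGB2, -2.51 and -2.65 for SPI1, and -2.21 and -1.34 for AIF1, all called, and the count of calls for the agents in stretched tissue went from 14 to 1 (9 with trend and robust variances, 5 with the covariate). Leaving out each array in turn changed no call of a member, with stretch changes of -3.30 to -2.98 and -2.78 to -2.35 for ITGB2, -2.74 to -2.27 and -2.76 to -2.52 for SPI1, and -2.44 to -1.96 and -1.60 to -1.21 for AIF1. The correlations of AIF1 with ITGB2 and with SPI1 lost their call without the 2 arrays farthest in ITGB2 and in SPI1 (r = 0.38 and 0.50, the latter close to its 0.54 over all arrays). When arrays were centred on their brighter probe sets, the median change over the array moved by 0.23 without and 0.21 with agents, and there were 4426 lower and 11573 higher calls without and 4890 and 11991 with agents, against 5533 and 7067, and 5731 and 6796. The member changes were then -2.93 and -2.24 for ITGB2, -2.28 and -2.44 for SPI1, and -1.99 and -1.12 for AIF1. With the covariate 3053 and 2012 probe sets were lower and 2123 and 1709 higher, without and with agents. Of the 36 list counts, 30 of 72 recomputed values, with the covariate or without the 3 arrays, differed from the main count by over 1.5 times. For 40 named leukocyte genes direction turned at a call in 3 cases: CD53 without agents with array weights (0.81), CD40 with agents under the covariate (0.62) and PTPRC with agents under the covariate (-0.01). The cause of these shifts was not tested.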

Other observations

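Phagocyte genes of the lysosome and of antigen presentation moved in both directions. CTSS, a lysosomal protease of antigen-presenting cells, went from 11.56 to 10.12 in stretched tissue without agents (log2 change -1.43, limma adjusted p = 0.0111) and changed by -2.42 with agents (adjusted p = 0.000169). SLA-DRA and SLA-DMA, of the class II presentation pathway, changed by -2.01 (adjusted p = 0.0418) and -1.23 (adjusted p = 0.0256) without agents, and by -1.08 (adjusted p = 0.258) and -0.02 (adjusted p = 0.969) with agents. CD80, a costimulatory ligand for T cells, rose by 2.26 (adjusted p = 0.000959) without and 1.92 (adjusted p = 0.00285) with agents. Of the 16 measured genes of this list 4 were lower and 2 higher without agents, and 2 lower and 2 higher with agents. With the RNA quality covariate 1 was lower and 1 higher without agents, and 0 were called with agents.

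Among 7 measured granulocyte and mast cell genes, MMP9, the gelatinase of neutrophil granules, which other cells also make, fell in either condition (log2 change -3.15, limma adjusted p = 0.0039, and -4.18, adjusted p = 0.000342), and MS4A2, the beta chain of the mast cell IgE receptor, rose (2.60, adjusted p = 0.00144, and 2.30, adjusted p = 0.00312). With the RNA quality covariate the MS4A2 changes were 1.79 (adjusted p = 0.0758) and 1.18 (adjusted p = 0.399). The other MS4A2 probe set, at the bottom of the scale, changed by 0.14 in either condition (limma adjusted p = 0.0689 and 0.0644). KIT, another mast cell gene of the list, was dim and not called, at -0.36 (adjusted p = 0.123) and -0.20 (adjusted p = 0.39). The S100A8, S100A9 and S100A12 probe sets had static means under 5, with single static arrays of up to 6.64 for S100A8, and were not called. None of the 3 measured B lymphocyte genes passed the test in either condition.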
